A study of Mus musculus with 10 samples.

Results

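The olfactory and vomeronasal receptor genes of the mouse were examined in the chromatin of F123 embryonic stem cells. A gene was counted as a receptor gene when its annotated symbol began with Olfr, Vmn1r, Vmn2r or Taar and it was typed as protein-coding on chromosomes 1 to 19. This rule gave 1472 of the 20807 autosomal coding genes, and it used no measured value. Of these, 1128 were odorant receptor genes (Olfr), 208 were type 1 vomeronasal receptor genes (Vmn1r), 121 were type 2 vomeronasal receptor genes (Vmn2r) and 15 were trace amine-associated receptor genes (Taar). The other 19335 autosomal coding genes served as the comparison. F123 cells carry 1 Mus musculus castaneus and 1 S129/SvJae genome. They were grown on irradiated mouse embryonic fibroblasts, with a final passage free of that layer, and the labels name no treatment or genotype that differs between samples. The study profiled histone H3 lysine 4 trimethylation (H3K4me3) by ChIP-seq and open chromatin by ATAC-seq, with 2 biological replicates for each assay. It deposited 1 list of peaks per assay. The ATAC-seq list holds pooled peaks found in both replicates. The H3K4me3 list is named as replicated, and its exact rule is not given in the sources used here.

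Each olfactory sensory neuron expresses a single odorant receptor allele chosen from the whole repertoire, and the vomeronasal and trace amine receptors follow related rules in their own sensory neurons. All are G protein-coupled receptors, encoded in large tandem clusters, many with the coding sequence in 1 exon. In the olfactory epithelium the silent copies are packed in heterochromatin. H3K4me3 is the mark of active and poised promoters, and in embryonic stem cells it covers most promoters rich in CpG dinucleotides, including those of many developmental genes that are not yet expressed. An ATAC-seq peak is a stretch of DNA open to the Tn5 transposase.

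The sequences below show what the receptor genes look like at the base level, with every CpG in capitals. The first comes from the receptor gene whose promoter was closest to the median CpG content of all 1472. It is the 200 bases directly upstream of the 5' end of Olfr351 (chr2:36862661-36862860, minus strand, GRCm38.p6, the patch release of mm10). The others are 200 bases centred on the summit of strong H3K4me3 peaks found at receptor genes, read on the strand of the gene. They come from the 5 highest fold enrichments without Olfr1419, the fourth, since annotated untranslated sequence was not shown and lay over or beside its summit. Olfr1344, the next in fold enrichment, was also considered and left out for the same reason. The stretches shown lie at Vmn1r4 (chr6:56923582-56923781, plus strand), Olfr750 (chr14:51063594-51063793, minus strand), Olfr94 (chr17:37197245-37197444, minus strand) and Olfr95 (chr17:37211387-37211586, minus strand).
Olfr351 upstream: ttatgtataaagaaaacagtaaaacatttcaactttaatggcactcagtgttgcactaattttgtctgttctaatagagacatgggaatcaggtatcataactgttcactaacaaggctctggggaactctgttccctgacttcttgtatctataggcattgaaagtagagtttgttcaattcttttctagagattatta
Vmn1r4 peak: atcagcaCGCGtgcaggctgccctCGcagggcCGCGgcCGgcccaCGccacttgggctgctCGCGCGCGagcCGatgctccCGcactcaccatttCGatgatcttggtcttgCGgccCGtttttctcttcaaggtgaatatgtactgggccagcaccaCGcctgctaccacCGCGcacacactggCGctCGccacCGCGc
Olfr750 peak: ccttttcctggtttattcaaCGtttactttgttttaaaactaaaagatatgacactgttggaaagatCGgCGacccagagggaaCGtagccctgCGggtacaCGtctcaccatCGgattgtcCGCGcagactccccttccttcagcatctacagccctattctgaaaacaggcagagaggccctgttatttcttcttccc
Olfr94 peak: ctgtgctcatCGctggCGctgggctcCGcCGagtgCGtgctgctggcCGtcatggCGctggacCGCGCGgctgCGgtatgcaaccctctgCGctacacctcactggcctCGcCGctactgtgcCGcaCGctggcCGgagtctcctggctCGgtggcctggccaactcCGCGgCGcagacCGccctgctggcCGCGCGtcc
Olfr95 peak: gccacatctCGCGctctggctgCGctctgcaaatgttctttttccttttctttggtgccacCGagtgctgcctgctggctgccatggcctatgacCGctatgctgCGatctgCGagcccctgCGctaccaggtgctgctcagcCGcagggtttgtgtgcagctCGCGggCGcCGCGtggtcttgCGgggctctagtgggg

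The Olfr351 stretch held 0 CpG and had a GC content of 34.0%. The stretch at Vmn1r4 held 23 CpG, and 110 of its 200 bases were coding sequence of Nt5c3, a pyrimidine nucleotidase gene. The stretch at Olfr750 held 9 CpG and lay beyond the 3' end of the gene. The stretches at Olfr94 and Olfr95 held 25 and 15 CpG, and all 200 bases of each were the receptor's own coding sequence. Over all receptor genes, 733 of 1472 (49.8%) had no CpG in the 200 bases upstream of the 5' end, and the median was 1. Among other coding genes 6.38% had none, and the median was 8. The median ratio of observed to expected CpG over 500 bases either side of the 5' end was 0.104 for receptor genes and 0.607 for other coding genes.

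H3K4me3 was almost never called at receptor genes. A window of 2 kb either side of the 5' end held an H3K4me3 peak in 6 of the 1472 genes (0.408%, 95% Wilson interval 0.187 to 0.886%), against 72.8% of other coding genes and 67.7% of all coding genes. The share in other coding genes was 179 times that in receptor genes (95% interval 80.4 to 397). The count depended on the window, with 2 genes for 1 kb and 21 for 5 kb either side. Somewhere in the gene body, 20 receptor genes (1.36%, 0.881 to 2.09%) held an H3K4me3 peak, against 78.0% of other and 72.6% of all coding genes. The 6 windows belonged to 4 Olfr and 2 Vmn1r genes. None of the 121 Vmn2r windows held a peak (upper bound 3.08%), and none of the 15 Taar windows did (upper bound 20.4%). Because each list stands for both replicates, no spread between samples could be computed and no test over samples was possible. The intervals cover counting error only, genes are not replicates, and neighbouring receptor genes are often near copies.

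Open chromatin was rare as well, though less so. An ATAC-seq peak fell in the window of 114 receptor genes (7.74%, 6.49 to 9.22%), against 81.1% of other and 75.9% of all coding genes. The ratio of the shares was 10.5 (8.77 to 12.5). With 1 kb either side 47 genes were counted, and with 5 kb 312. By family, 99 Olfr windows (8.78%), 10 Vmn1r windows (4.81%), 4 Vmn2r windows (3.31%) and 1 Taar window (6.67%) held an ATAC-seq peak, and the intervals of the 4 families overlapped. In the gene body 201 receptor genes (13.7%) held an ATAC-seq peak, against 87.6% of other and 82.4% of all coding genes. Over window and body, 1200 receptor genes (81.5%) held no peak of either kind, against 10.5% of other coding genes. All 6 windows with H3K4me3 also held an ATAC-seq peak. Over all coding genes 13974 of 14079 windows with H3K4me3 did, so this is no result about receptor genes.

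**Figure D1:**
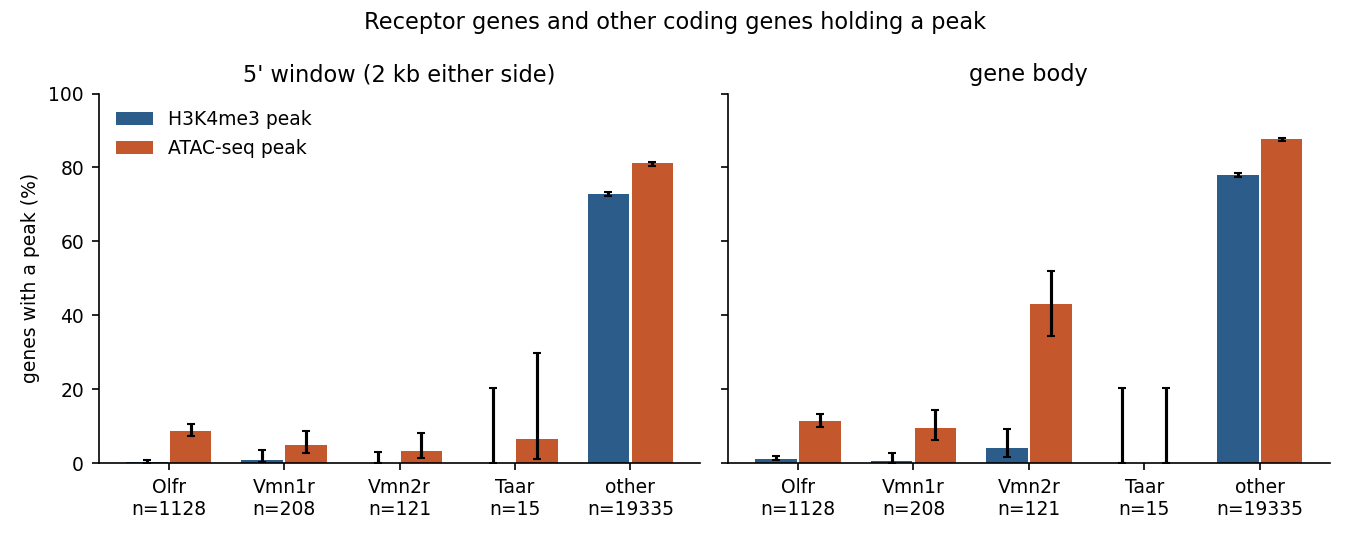
Share of genes (%) with an H3K4me3 peak (blue) or an ATAC-seq peak (orange) in the 5' window (left) and the gene body (right), for each receptor family and for other coding genes. Bars are shares and error bars 95% Wilson intervals; the Vmn2r bodies stand out at 43.0% with an ATAC-seq peak, while H3K4me3 in the window stays under 1% in every family.

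Vmn2r genes held ATAC-seq peaks in the body more often than the other families. In 52 of 121 Vmn2r genes (43.0%, 34.5 to 51.9%) the body held an ATAC-seq peak, against 129 Olfr genes (11.4%) and 20 Vmn1r genes (9.62%). Vmn2r receptors carry a large extracellular domain encoded upstream of the membrane-spanning exon, and their genes were long: the median body was 27146 bp, against 5994 bp for Olfr and 6796 bp for Vmn1r. Per Mb of gene body the families were close, at 21.9 ATAC-seq peaks for Vmn2r, 21.2 for Olfr and 20.5 for Vmn1r. Other coding genes had 94.4 per Mb. H3K4me3 peaks in bodies numbered 1.35 per Mb in Vmn2r, 1.84 in Olfr and 0.64 in Vmn1r genes, against 26.0 per Mb in other coding genes.

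The 15 Taar genes lie in 1 cluster on chromosome 10. They are Taar1, Taar2, Taar3, Taar4, Taar5, Taar6, Taar7a, Taar7b, Taar7d, Taar7e, Taar7f, Taar8a, Taar8b, Taar8c and Taar9. Apart from Taar1, these are receptors for volatile amines in a small group of olfactory neurons. No Taar gene held an H3K4me3 peak or an ATAC-seq peak in its body, and 14 held no peak at all. Taar9 alone had an ATAC-seq peak in its window. The CpG ratio of this family was the highest of the 4, with a median of 0.167.

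The few receptor genes with H3K4me3 are the exceptions to the pattern. Across window and body 21 genes held such a peak, 14 Olfr, 2 Vmn1r and 5 Vmn2r, each with 1 peak. The median fold enrichment of these peaks was 5.34, against 8.81 over all autosomal peaks, and 16 of the 21 were below that median. The peaks were 660 bp wide at the median, against 1130 bp over the list. Of the 21, 18 overlapped an ATAC-seq peak, and that share was not computed for the whole list. The annotated 5' end of the receptor gene was covered by 2 of them. Over all receptor genes that is 0.136%, against 67.1% of other coding genes. A fold enrichment is the authors' ratio of the signal to the local background of the peak caller, and it is compared here only within this list.

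The strongest peak stood at Vmn1r4, with a fold enrichment of 43.4 (chr6:56922876-56924901), higher than 92.7% of the list. It covered the annotated 5' end of Vmn1r4 and also the start of Nt5c3, so the signal cannot be assigned to either gene. Vmn1r4 was annotated over 34086 bp with 9 exons. Next came Olfr750 with 39.7 (chr14:51062870-51066796), a peak of 3927 bp over the 3' end of the gene. It overlapped 5 ATAC-seq peaks, and the nearest start of another coding gene was that of Rnase12, at 5209 bp. The peak at Olfr94, with a fold enrichment of 23.3 (chr17:37196639-37197915), covered coding sequence 3079 bp from the 5' end. Only 96 bp separated it from the start of another Olfr94 transcript, and 2747 bp from Ubd, a ubiquitin-like modifier gene. Olfr1419 followed with 12.2 (chr19:11868402-11869363), at the 3' end of the gene.

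Olfr95, a neighbour of Olfr94 on chromosome 17, had a peak of fold enrichment 9.96 in its coding exon (chr17:37210765-37211986). Olfr1344 had a peak of 8.16 in its coding exon on chromosome 7 (chr7:6439922-6440581), with 2 ATAC-seq peaks under it. Olfr658 had a peak of 7.56 over its own 5' end (chr7:104646719-104647397), and the nearest start of another coding gene was 130073 bp away. Among the 6 genes with H3K4me3 in the window it was the only one, besides Vmn1r4, in which the peak covered the 5' end. Vmn1r2 had a peak of 7.16 (chr4:3165088-3165438) 1882 bp upstream of its 5' end, where 75.8% of the bases were soft-masked as repetitive in the reference and only 37.6% of the 50-base words of the window occurred once in the genome. Olfr212 had a peak of 4.30 (chr6:116507942-116508718) in an intron, 1426 bp from the 5' end, with a separate ATAC-seq peak over the 5' end.

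The remaining 12 peaks lay in gene bodies at fold enrichments of 3.01 to 6.16. They were at Olfr539 (6.16), Olfr455 (5.59), Vmn2r86 (5.34), Olfr286 (4.63), Olfr56 (3.73), Vmn2r79 (3.72), Vmn2r65 (3.58), Olfr718-ps1 (3.44), Olfr15 (3.35), Vmn2r24 (3.27), Olfr1358 (3.04) and Vmn2r6 (3.01). The peak in Olfr56, a gene annotated over 156499 bp, covered the start of Ifi47, an interferon-inducible GTPase gene. The peaks in Vmn2r65 and Vmn2r6 were soft-masked over 89.2% and 100% of their length. The 5 Vmn2r peaks were 9469 to 22329 bp from the 5' end, and those of Vmn2r79, Vmn2r65, Vmn2r24 and Vmn2r6 touched no exon of the gene. None of the 21 peaks lay at a Taar gene.

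**Figure D2:**
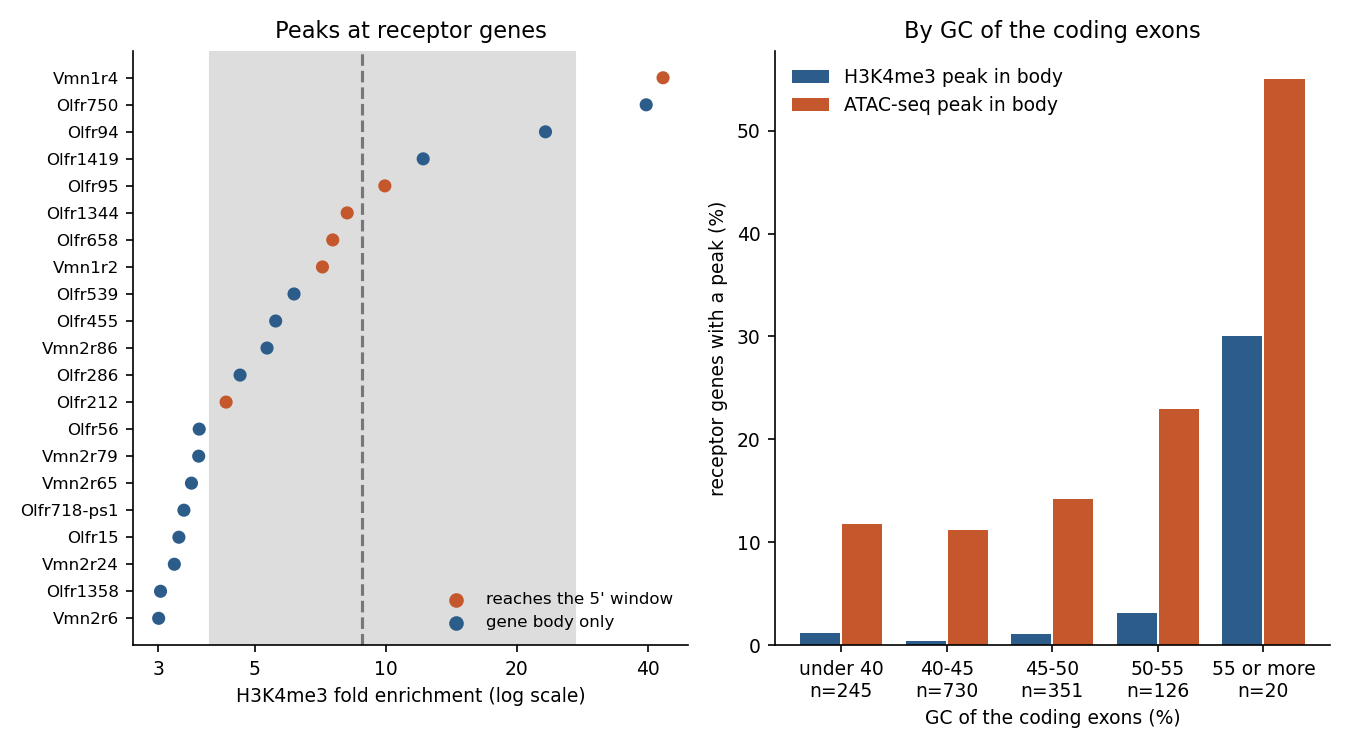
Left, fold enrichment (log axis) of the H3K4me3 peak at each of the 21 receptor genes that had one, orange where the peak reached the 5' window and blue where it lay in the body only; the dashed line is the median of the list (8.81) and the grey band its interquartile range. Right, share of receptor genes (%) with a peak in the body by GC of the coding exons, at 30.0% for H3K4me3 and 55% for ATAC-seq among the 20 genes of highest GC and between 0.411% and 3.17% for H3K4me3 in the other classes.

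Part of the exceptions shared a feature that the rule did not use. In 7 of the 21 genes the peak touched the receptor's own coding sequence: Olfr94, Olfr95, Olfr1344, Olfr455, Olfr718-ps1, Olfr15 and Olfr1358. The coding exons of these genes were GC-rich for the family, at 61.4% in Olfr94, 61.2% in Olfr1344, 60.3% in Olfr718-ps1 and 50.5% in Olfr15, against a median of 42.9% over all receptor genes and 52.8% over other coding genes. Receptor genes were therefore divided by the GC of their coding exons, with limits chosen after these values were seen. Of the 20 genes at 55% or more, 6 (30.0%) held an H3K4me3 peak in the body and 11 (55%) an ATAC-seq peak. The 6 include Olfr1358, whose peak also covered the start of the noncoding gene Gm47944 and ran past the 3' end of Olfr1358. Between 50 and 55% the counts were 4 and 29 of 126 genes, or 3.17% and 23.0%. In the largest class, 40 to 45%, 3 of 730 genes (0.411%) held H3K4me3 and 82 (11.2%) ATAC-seq. Between 45 and 50% they were 4 (1.14%) and 50 (14.2%) of 351 genes, and below 40% they were 3 (1.22%) and 29 (11.8%) of 245, so the H3K4me3 share did not rise from class to class below 50%. The 14 GC-rich genes without H3K4me3 included Olfr544 and Olfr545 of the class I cluster, named here after their values were seen. These shares describe the same 21 peaks and are no independent support.

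Since receptor genes and other coding genes differed in promoter CpG content, the shares were set side by side within classes of it. Below a CpG ratio of 0.2 lay 1324 receptor genes (89.9% of them) and 3375 other coding genes (17.5%). In that class 2 receptor genes (0.151%, 0.0414 to 0.549%) held an H3K4me3 peak in the window, against 390 other coding genes (11.6%, 10.5 to 12.7%). ATAC-seq peaks were in 6.87% of receptor windows (5.63 to 8.36%) and 31.4% of the others (29.9 to 33%). Within the class the receptor genes still had less CpG, with a median ratio of 0.10 against 0.13, and a lower GC content, 36.9% against 46.1%. Below 0.1 the H3K4me3 shares were 0.144% of 693 receptor genes and 5.48% of 986 others, intervals 0.0255 to 0.813% and 4.22 to 7.08%. Over all classes, 3015 of the 19335 other coding windows held the 5' end of a further coding gene outside the receptor families. Only 3 of the 1472 receptor windows did. The part of such neighbours in the shares within classes was not tested.

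Above that class few receptor genes remained. Between 0.2 and 0.3, 1 of 126 (0.794%) held H3K4me3, against 30.6% of other coding genes. Between 0.3 and 0.4, 0 of 16 did (upper bound 19.4%), against 56.2%. Between 0.4 and 0.6, 2 of 5 receptor genes held H3K4me3, Olfr212 and Olfr658, against 90.9% of other coding genes. Vmn1r4, with a CpG ratio of 0.89 around the 5' end next to Nt5c3, was the only receptor gene above 0.6.

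**Figure D3:**
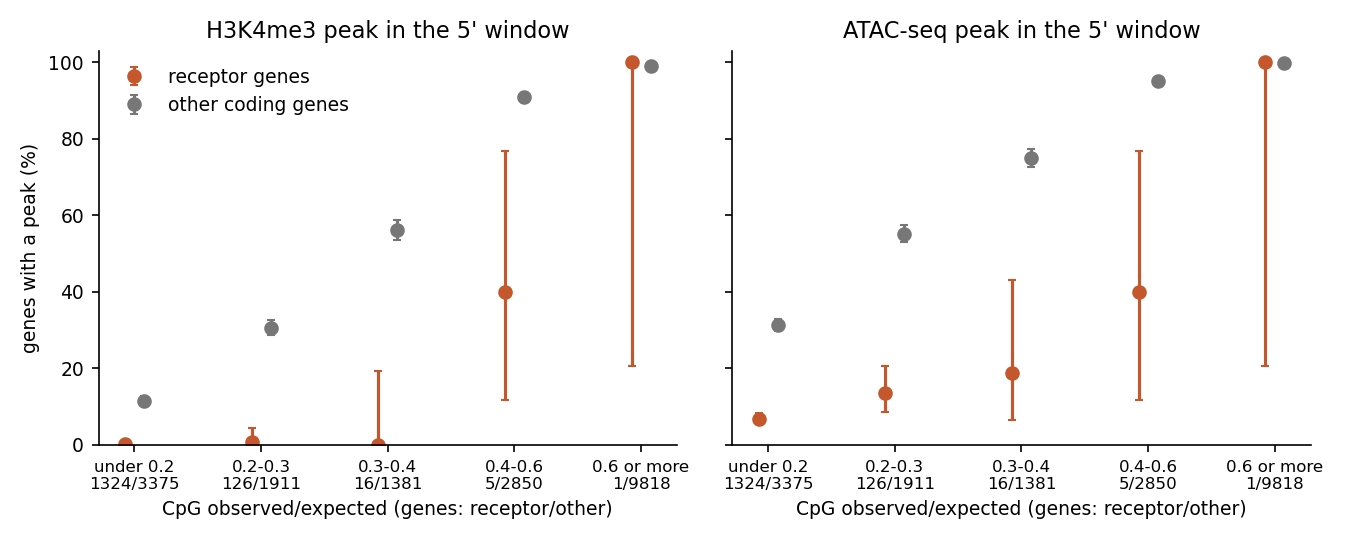
Share of genes (%) with an H3K4me3 peak (left) or an ATAC-seq peak (right) in the 5' window, by the ratio of observed to expected CpG over 500 bases either side of the 5' end, for receptor genes (orange) and other coding genes (grey). Error bars are 95% Wilson intervals and the numbers under the axis are genes in each class; in the lowest class H3K4me3 was at 0.151% of receptor genes and 11.6% of others.

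ATAC-seq peaks near receptor genes rarely covered the 5' end. The 114 genes had 121 peaks in their windows, and 8 of these covered the annotated 5' end. That is 7.02% of the receptor genes with a window peak, against 84.3% of the other coding genes with one. By midpoint, 82 of the 121 peaks were upstream and 39 downstream, and 62 were more than 1 kb upstream. Only 7 overlapped an H3K4me3 peak and 10 touched coding sequence. No 5' untranslated region was annotated for 153 of the 1472 genes, whose annotated 5' end may therefore lie inside the transcript.

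The ATAC-seq profile around the 5' end had a trough where other genes have their summit. In bins of 500 bases, 3.18% of receptor gene bins from 5 kb to 1 kb upstream held an ATAC-seq peak, and 3.29% from 10 kb to 5 kb upstream. From 1 kb upstream to 3.5 kb downstream the share was 1.03%, in a zone whose limits follow the run of low bins in this same profile. The bins from 3.5 to 5 kb downstream, left out of the zones, were at 1.63 to 1.83%. From 5 to 10 kb downstream the share was 2.98%. In other coding genes the same zones gave 8.07%, 10.9%, 30.1% and 10.3%. The share of soft-masked bases around receptor genes moved alongside, at 50.3% and 54.4% in the upstream zones, 23.9% over the start and 43.8% in the downstream zone. Its part in the trough was not tested.

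**Figure D4:**
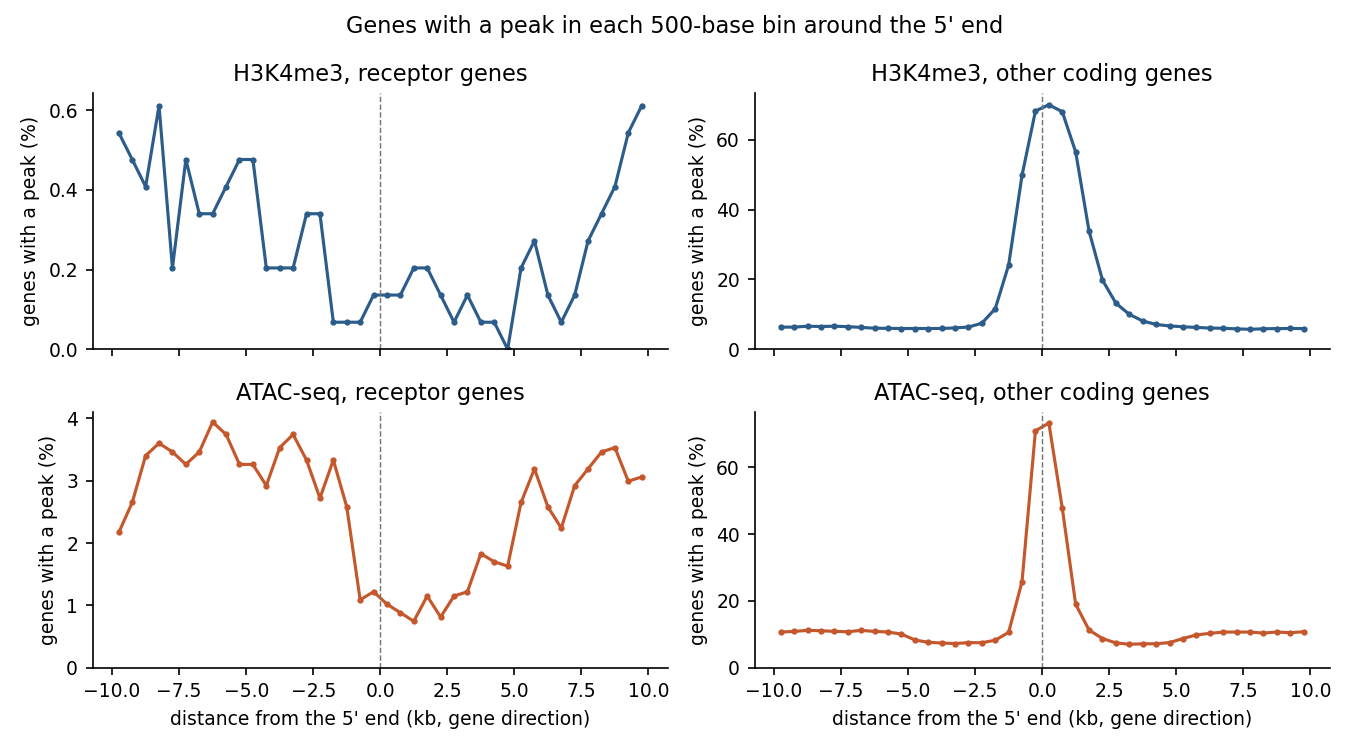
Share of genes (%) with a peak in each 500-base bin within 10 kb of the 5' end, in the direction of the gene, for H3K4me3 (top) and ATAC-seq (bottom) at receptor genes (left) and other coding genes (right). The vertical scales differ between panels. Receptor genes stay under 4%, with a dip in ATAC-seq around the 5' end, while other coding genes rise above 60% there. The H3K4me3 shares of receptor genes rest on few genes per bin.

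The 8 receptor genes with an ATAC-seq peak over the 5' end were Olfr995, Vmn1r4, Olfr212, Olfr658, Olfr506, Olfr15, Vmn1r226 and Vmn2r111, of which Olfr995, Olfr506, Vmn1r226 and Vmn2r111 were picked out after their values were seen. Vmn1r4 had the widest of these peaks at 948 bp and Olfr506 the narrowest at 185 bp. At Olfr506, Olfr15 and Vmn1r226 the peak held no CpG. Olfr212 and Olfr15 had an ATAC-seq peak over the 5' end and a separate H3K4me3 peak inside the body, 1426 bp and 8483 bp from it.

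The widest ATAC-seq peaks in receptor windows lay at Vmn1r48 (2458 bp), Olfr641 (1379 bp), Olfr1311 (1064 bp), Olfr419 (1056 bp), Olfr1504 (1046 bp), Vmn1r4 (948 bp), Olfr773 (914 bp), Olfr658 (845 bp), Olfr982 (833 bp) and Olfr503 (743 bp). Of these only the peaks at Vmn1r4 and Olfr658 overlapped H3K4me3. The first 5 and that of Olfr773 were soft-masked over 77.5% to 100% of their length. At Vmn1r48, 17.1% of the 50-base words in the window were unique, and at Olfr419 98.9% were. At the other end, the peaks at Vmn1r4, Olfr658, Olfr982 and Olfr503 were soft-masked over less than 10%. The highest number of ATAC-seq peaks in a window was 2, reached by 7 genes: Olfr1344, Olfr655, Olfr823, Olfr1451, Olfr1431, Olfr97 and Olfr982. At Olfr982 and Olfr1344 both peaks lay in the coding exon, and at the other 5 both lay upstream.

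Soft-masked sequence was common under these peaks in general. At receptor windows 45 of 121 ATAC-seq peaks (37.2%, 29.1 to 46.1%) were masked over at least 50% of their length, against 4.57% at the windows of other coding genes and 24.3% of all autosomal peaks. The receptor peaks were 231 bp wide at the median, against 655 bp at other coding windows and 260 bp overall. Peaks without H3K4me3 overlap outside the receptor gene clusters had nearly the same width, 230 bp. Of those peaks 29.2% were masked over at least 50% of their length, which is inside the receptor interval. Neither trait is therefore particular to receptor windows. Without peaks masked over at least 50% of their length, 73 receptor windows (4.96%) held an ATAC-seq peak. Multi-copy sequence can lower or misplace aligned reads, and how the pipelines treated such reads was not tested. The windows themselves were largely unique: the median share of 50-base words that occur once in the genome was 95.7% for receptor genes and 98.7% for other coding genes. It was lower in Vmn1r (86.3%) and Vmn2r (87.1%), and 98 receptor genes had less than 50% (9 Olfr, 59 Vmn1r and 30 Vmn2r).

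Sequence motifs of olfactory promoters were looked up in the 300-base RefSeq promoters (GRCm38.p6) that matched 1235 of the receptor genes by symbol, 1238 promoters in all. The letters TAATTA, the core bound by homeodomain factors such as Lhx2, were in 210 of them (17.0%, 15.0 to 19.2%), against 5.29% of all 32851 promoters in the table. CCCNNGGG, the core of the site of Ebf factors, was in 52 (4.20%), against 13.7% of all promoters. Within the families it was in 23 of 115 Vmn2r promoters (20.0%) and 28 of 929 Olfr promoters (3.01%). TATAAA was in 495 of 1238, against 4473 of 32851 overall (13.6%). GGGCGG, a GC box, was in 12 (0.969%), against 35.7%. Both strands were searched, matches of different motifs may overlap, and near copies within a family share their matches. A match of letters is a description and no sign of binding. The bases around receptor 5' ends had a median GC content of 37.0%, against 55.9% for other coding genes.

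Receptor genes are grouped in the genome, and the groups were defined by joining members whose neighbouring 5' ends lay at most 500 kb apart. This gave 46 clusters of at least 5 genes with 1421 members, and 51 genes lay outside. Together the clusters spanned 54.1 Mb. They held 353 H3K4me3 peaks, 6.52 per Mb against 13.3 per Mb in the rest of the autosomes. The ratio of 2.05 depended on the joining distance: with 200 kb the clusters had 3.32 per Mb and the ratio was 4.03, and with 1 Mb they had 7.53 and it was 1.77. ATAC-seq peaks stood at 43.9 per Mb against 70.8. Coding genes outside the receptor families were also sparser in the clusters, at 4.95 per Mb against 7.92 per Mb in the rest. The part of gene density in the lower peak densities was not tested. In 39 of 46 clusters the H3K4me3 density, and in 41 the ATAC-seq density, was below that of the rest of the autosomes. The median cluster had 3.73 H3K4me3 peaks per Mb.

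Little of the H3K4me3 inside clusters was at receptor genes. Of the 353 peaks, 140 (39.7%) came within 2 kb of another coding gene's start. Only 4 lay at a receptor start and no other coding start, 12 lay in a receptor body, 32 lay at the start of a noncoding gene or pseudogene, and 165 (46.7%) lay at none of these. Peaks away from other coding starts were weaker, with a median fold enrichment of 4.44 against 21.7 for those at other coding starts. The clusters held 268 coding genes whose symbols lack the 4 prefixes. Of these, 43.7% (37.8 to 49.6%) had H3K4me3 in the window, against 73.2% of such genes outside the clusters. A receptor gene under another symbol, such as V1ra8, counts among them. A further 38 lay in the Vmn1r91 to Vmn1r183 cluster, where the median receptor window had 10.1% unique 50-base words, and 0 of these 38 held H3K4me3. The part of both in the lower share was not tested.

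The largest cluster, on chromosome 2 from Olfr987 to Olfr1274-ps, had 227 Olfr genes over 5.07 Mb and 5 H3K4me3 peaks, none at the window of a member, with a stretch of 2.2 Mb free of them. ATAC-seq peaks lay in 16 of its windows (7.05%). The second, on chromosome 7 from Olfr543 to Olfr692, holds the class I odorant receptors, the fish-like branch of the family, and had 129 members over 2.89 Mb. Of its 8 H3K4me3 peaks, 5 were at other coding genes, and the marked neighbours were the Trim genes Trim21, Trim68, Trim6, Trim34a and Trim12c. Its 1 marked member window was that of Olfr658. The chromosome 9 cluster from Olfr160 to Olfr986 had 95 members and 7 H3K4me3 peaks over 2.48 Mb, none in a member window. The chromosome 19 cluster from Olfr1417 to Olfr1505 had 66 members, 18 H3K4me3 peaks and none in a member window.

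The cluster on chromosome 7 from Vmn1r91 to Vmn1r183 stood at the low end. It held 65 Vmn1r genes over 3.96 Mb, no H3K4me3 peak and 17.4 ATAC-seq peaks per Mb, the lowest of the 46, and no member window with an ATAC-seq peak. The median window had 10.1% of its 50-base words occurring once, so an absence of peaks there cannot be told apart from an absence of placeable reads. A second cluster of few unique words, on chromosome 7 from Vmn2r29 to Vmn2r37 and named after its values were seen, had a median of 9.21% with 17 members over 1.99 Mb. It held 3 H3K4me3 peaks, of which 2 were at another coding start, and 21.6 ATAC-seq peaks per Mb, with 1 member window reached by ATAC-seq. In all, 8 clusters had no H3K4me3 peak, with 136 members over 6.26 Mb. The others were small, and 1 of them, on chromosome 7 from Olfr693 to Olfr716, had 26 members and windows that were 98.6% unique.

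The remaining clusters among the 8 largest were those on chromosome 10 from Olfr9 to Vmn2r87 (64 members, 4 H3K4me3 peaks), chromosome 13 from Olfr1370 to Vmn1r223 (49 members, 91 peaks) and chromosome 17 from Olfr90 to Olfr136 (49 members, 8 peaks). The chromosome 13 cluster stood apart with 41.7 H3K4me3 peaks per Mb, 25.8% of all peaks in clusters, yet none of its member windows held one. Its marked neighbours included histone genes such as Hist1h2bl and zinc finger genes such as Zkscan3 and Zscan12. Without it the density in clusters was 5.04 H3K4me3 peaks per Mb. The chromosome 17 cluster holds Olfr94 and Olfr95.

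H3K4me3 was at a member window in 5 clusters. Beside those of Olfr658 and Olfr95 they were the chromosome 6 cluster from Vmn1r4 to Vmn1r31 (28 members), the chromosome 7 cluster from Vmn1r55 to Olfr1350 (20 members), which holds Olfr1344, and the chromosome 6 cluster from Olfr211 to Olfr215 (5 members), which holds Olfr212. Each had 1 such window. ATAC-seq reached at least 1 member window in 33 of the 46 clusters.

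The change in peak density was seen at the cluster edge. In the 35 clusters of at least 400 kb, 10 kb bins from 50 to 200 kb outside the edge held an H3K4me3 peak in 23.2% of cases (20.7 to 25.8%), and those within 50 kb outside in 16.9% (13.3 to 21.1%). Inside, the shares were 4.29% (2.61 to 6.95%) within 50 kb and 8.0% (6.51 to 9.8%) from 50 to 200 kb. ATAC-seq fell from 54.6% within 50 kb outside to 34.9% within 50 kb inside. The edge is set by the outermost receptor gene, so the first bins inside hold a receptor gene by construction.

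**Figure D5:**
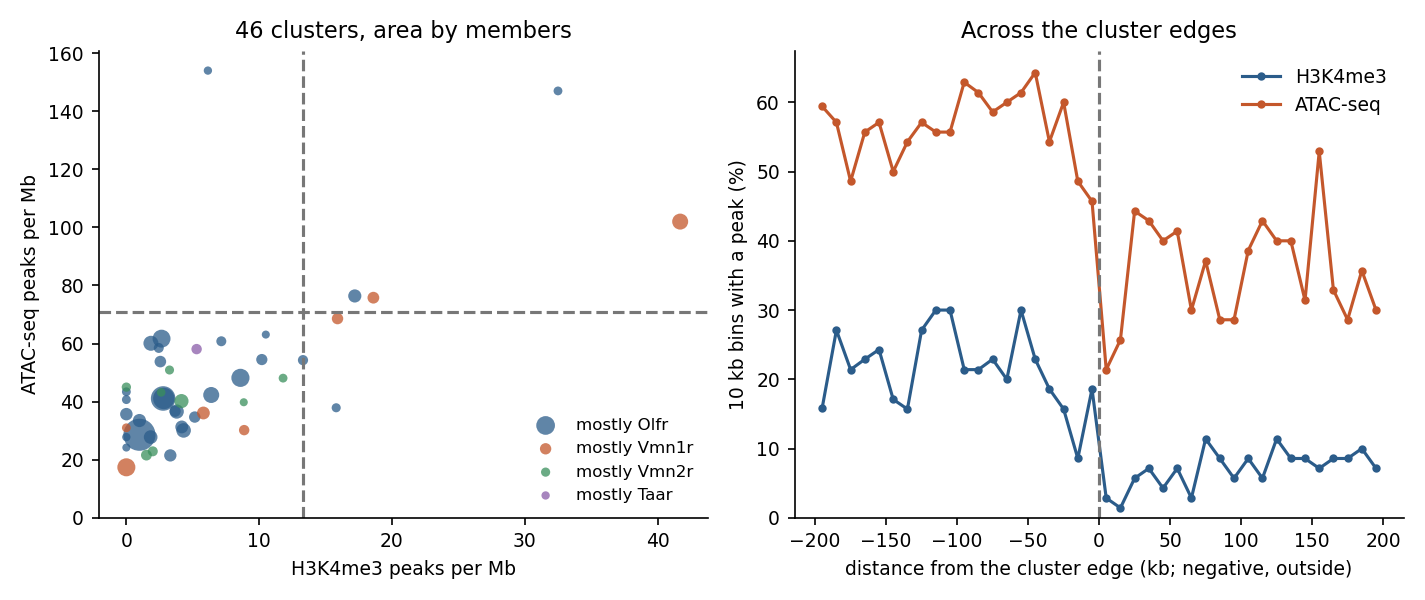
Left, H3K4me3 and ATAC-seq peaks per Mb in each of the 46 clusters, with area by number of members, colour by the family with the most members and dashed lines at the rest of the autosomes (13.3 and 70.8 per Mb). Right, share of 10 kb bins (%) with a peak across the edges of 35 clusters, where H3K4me3 falls from 16.9% within 50 kb outside to 4.29% within 50 kb inside.

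The genes that act with the receptors in sensory neurons were counted for comparison. Of 23 genes of olfactory and vomeronasal signalling, 17 held H3K4me3 in the window and 18 an ATAC-seq peak, which is near the 67.7% and 75.9% of all coding genes and no result about these genes. Gnal, the olfactory G protein alpha subunit, had a peak of fold enrichment 22.7 and Adcy3, the adenylyl cyclase of the cilia, one of 28.2. Gnao1 and Gnai2, the G protein alpha subunits of vomeronasal neurons, had 30.6 and 45.1. Trpc2, the vomeronasal cation channel, had a weak one of 2.68. The 6 without H3K4me3 were Omp, Cnga4, Cngb1, Ano1, Rtp1 and Rtp2, and of these Cnga4, Cngb1 and Rtp1, with CpG ratios of 0.16 to 0.17, and Rtp2, with 0.33, had no ATAC-seq peak in the window either. In their bodies Cngb1 held 10 ATAC-seq peaks and 1 H3K4me3 peak, and Ano1 held 11 and 2. Cnga4 and Cngb1 are subunits of the olfactory cyclic nucleotide-gated channel, and Rtp1 and Rtp2 carry receptors to the cell surface.

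Of 28 autosomal regulators of receptor choice and silencing, 27 held H3K4me3 in the window. These included the transcription factor genes Lhx2 (20.2), Emx2 (13.3) and Ebf1 (26.3), the cofactor gene Ldb1 (56.4), the histone demethylase gene Kdm1a (57.5), the histone H3 lysine 9 methyltransferase genes Ehmt1 (40.2), Ehmt2 (50.0) and Setdb1 (8.04), and Lbr (39.2), which tethers heterochromatin to the nuclear lamina. Trim28 was the exception, with 3 H3K4me3 peaks in its body but none at its annotated 5' end, where it had an ATAC-seq peak. All 28 held an ATAC-seq peak there. The lists were chosen with earlier results known, and these shares stand beside 67.7% for H3K4me3 and 75.9% for ATAC-seq over all coding genes.

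Marker genes were counted to check the label of the cells. Of 10 embryonic stem cell markers 9 held H3K4me3 in the window, all but Esrrb. The Esrrb window held 2 ATAC-seq peaks, and its body held 12 H3K4me3 and 43 ATAC-seq peaks. Of 10 markers of olfactory sensory neurons 5 did, with Omp, Cnga4, Rtp1, Rtp2 and Stoml3 without. Of 10 fibroblast markers, those of the feeder layer, 7 did, among them Col1a1 (13.9) and Thy1 (19.6), and Col3a1, Lum and Postn did not. Over all coding genes the share was 67.7%, so the fibroblast count is near that share and no result about feeder cells. H3K4me3 is present at many genes that are not expressed, and the part of feeder cells in the peaks was not tested.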

How the data were processed

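H3K4me3 ChIP-seq and ATAC-seq of F123 cells were used, 4 samples in all. Per the authors, the H3K4me3 list came from ENCODE's uniform histone pipeline at default settings; its aligner and thresholds are not given in the sources used here. Its deposited values are positions, a fold enrichment (ratio) and −log10 of p and q, of which q was used. A deposited score column was not used. For the ATAC-seq list the authors aligned reads to mm10 (Bowtie 1.1.2), removed duplicates and mitochondrial reads (SAMtools), shifted read ends for the Tn5 insertion, called peaks (MACS2 2.1.1.20160309) and kept pooled peaks seen in both replicates (bedtools 2.27.1). It holds positions only. Neither list holds read counts, so the depth behind a peak is unknown.

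Genes were taken from GENCODE M21 and bases from GRCm38.p6. A peak counted when it shared at least 1 bp with the 2 kb window or the body. Shares have 95% Wilson intervals (scipy 1.17.1). Overlaps were checked against bedtools 2.31.1 on 20807 windows, of which 0 differed. The members, gene lists and markers were chosen with earlier results of these data known. Named genes were every receptor gene with H3K4me3, the 10 widest and most numerous window ATAC-seq peaks, all Taar genes and the largest or marked clusters. PLAC-seq and input samples were not used here. The 43 members with "-ps" in the symbol were kept, since they were typed as protein-coding, and 2 symbols occurred more than once. A further 9 members on the sex chromosomes were left out.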

Additional observations from a re-analysis of the deposited data

How the results depend on the processing

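No value reversed: receptor genes held peaks less often than other coding genes in every setting run on genes, and clusters held fewer peaks per Mb than the rest of the autosomes in every setting run on clusters. Of 108 recomputed values, 84 stayed within 1.5 times the reported count or inside the reported interval and 24 moved. The causes were not tested beyond what each setting itself changes. Some of the 84 could not move, so their number overstates how stable the results are. The window and transcript-start settings leave the gene bodies as they were, and a cut on 1 list leaves the values of the other list as they were. With 1 kb windows 2 receptor genes held H3K4me3 and 47 ATAC-seq, at ratios of other to receptor shares of 525 and 24.2. With 5 kb windows the counts were 21 and 312 and the ratios 53.2 and 4.13. Over every annotated transcript start 13 receptor genes held H3K4me3 in a window, and the ATAC-seq ratio was 7.67. With the widest 50% of ATAC-seq peaks, 53 windows (ratio 21.2) and 105 bodies (ratio 11.7) held one. Without peaks soft-masked over at least 50% of their length, an alternative added after the values were seen, 73 windows held an ATAC-seq peak (ratio 16.1). The density ratio of the rest of the autosomes to the clusters, 2.05 for H3K4me3 and 1.61 for ATAC-seq, was 4.03 and 1.93 with a cluster gap of 200 kb, 1.77 and 1.48 with 1 Mb, and, also added, 2.65 and 1.71 without the chromosome 13 cluster with 91 H3K4me3 peaks. The H3K4me3 share of other coding genes below a CpG ratio of 0.2, 11.6%, was 9.52% with CpG counted over 1 kb either side, and 13.2% among genes with at least 50% unique words, also added. No paired analysis was possible because each list stands for both replicates, so no replicate could be left out either. The depth behind the lists is unknown, and an absent peak is not evidence of absent signal.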

Other observations

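Other chemosensory receptor families and other gene families, taken by symbol, were counted in the same way. The set was picked with the receptor values known. Over all coding genes the window shares were 67.7% for H3K4me3 and 75.9% for ATAC-seq. Taste receptor genes (Tas1r and Tas2r) held H3K4me3 in 1 of 38 windows (2.63%) and ATAC-seq in 2 (5.26%). None of 7 formyl peptide receptor genes (Fpr), some of which are expressed in vomeronasal neurons, held either in the window. In the body 1 Fpr gene held H3K4me3 and 1 held an ATAC-seq peak. None of 19 Ms4a genes, which include chemoreceptors of the necklace olfactory neurons, and none of 42 beta-defensin genes (Defb) held H3K4me3 in the window (1 Ms4a gene did in the body), but 4 Ms4a and 11 Defb windows held an ATAC-seq peak. H3K4me3 was at 15.0% of Serpin windows, 20.8% of keratin windows (Krt) and 27.0% of cytochrome P450 windows (Cyp). At the other end were 88.3% of 385 Zfp windows and 96.5% of 57 protocadherin windows (Pcdha, Pcdhb and Pcdhg). The median CpG ratios of these were 0.61 and 0.564, near the 0.607 of other coding genes. In the other families named here the medians ran from 0.0778 (Fpr) to 0.302 (Krt), with Cyp at 0.151.

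Pseudogenes of the receptor families numbered 504 on the autosomes. H3K4me3 lay in the window of 9 (1.79%) and ATAC-seq in that of 76 (15.1%), against 0.408% and 7.74% of the coding members. The 9 were Olfr1127-ps1, Vmn2r-ps17, Vmn2r-ps18, Vmn2r-ps19, Olfr1401-ps1, Vmn2r-ps89, Olfr1372-ps1, Vmn1r-ps123 and Vmn1r-ps135, all named after their values were seen. A pseudogene's annotated start need not be a promoter.

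The ATAC-seq peaks in clusters were also searched for short motifs in the 200 bases around the midpoint, on both strands. The octamer ATTTGCAT, bound by POU factors, was in 133 of 2378 peaks in clusters (5.59%, 95% Wilson interval 4.74 to 6.59%) and in 2.88% of those outside (2.81 to 2.96%). It was in 3.39% of peaks outside clusters that had no H3K4me3 and lay at no coding 5' end. In receptor windows it was in 6 of 121 peaks (4.96%, 2.29 to 10.4%). The CTCF consensus was in 7.57% of peaks in clusters (6.57 to 8.70%), in 10.2% outside, and in 12.4% of those in receptor windows (7.66 to 19.4%). CTTTGTT, a core bound by SOX factors, was in 6.52% in clusters (5.59 to 7.58%), 5.78% outside and 11.6% in receptor windows (7.02 to 18.5%). GGGCGG was in 12.1% in clusters, 15.4% outside and 11.6% in receptor windows. These 4 motifs were the ones searched. Cluster peaks also differed in repeat content, with 54.2% masked over at least 50% of their length against 23.9% outside, and the part of repeats in the octamer share was not tested.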
